A study of Mus musculus with 15 samples.

Results

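The nuclear genes for the respiratory chain and ATP synthase of mitochondria were followed in cultured mouse dendritic cells (DC), which present antigen to T cells, before and after an inflammatory stimulus. The members are 71 genes whose symbol begins with Nduf, Uqcr, Atp5 or Cox followed by a digit from 4 to 8, or is one of Sdha to Sdhd, out of 8251 genes with a probe set of 1 symbol on the array. There were 29 genes of complex I, 4 of complex II, 7 of complex III, 15 of complex IV, 14 of complex V (ATP synthase) and 2 complex I assembly factors, Ndufaf1 and Ndufaf4, which are no subunits. Each gene was read from 1 probe set, a group of short probes for 1 transcript, namely the one with the highest mean over the arrays.

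Bone marrow came from female NOD mice, which spontaneously develop autoimmune diabetes, at 6 to 8 weeks of age. It was cultured for 4 days with 1 ng/ml of the growth factor GM-CSF (GM DC) or with GM-CSF and 1 ng/ml of interleukin-4 (GM4 DC), and the DC were taken from a metrizamide density gradient of 16% for GM DC and 14.5% for GM4 DC. By the series title GM4 DC are the therapeutic kind and GM DC the non therapeutic one. Cells were exposed to 10 µg/ml of bacterial lipopolysaccharide (LPS), a ligand of Toll-like receptor Tlr4, and 50 ng/ml of interferon-γ, and RNA was taken at 0, 6 and 20 h. Unstimulated GM DC had 3 arrays, and their 6 h and 20 h groups 2 each. For GM4 DC there were 3 unstimulated arrays, 3 of the 6 h group and 2 of the 20 h group. The culture, density fraction and interleukin-4 therefore differ together between the DC types. The titles place the GM4 0 h samples before stimulation whereas their source names mention the stimulus, and the protocol of GM4 0 h replicate 1 gives no doses.

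Complex I (NADH dehydrogenase) and complex II (succinate dehydrogenase) pass electrons from NADH and succinate to ubiquinone. Complex III (the cytochrome bc1 complex) hands them to cytochrome c, and complex IV (cytochrome c oxidase) hands them to oxygen. Complexes I, III and IV pump protons, and complex V lets the protons flow back to make ATP. Mouse DC stimulated through Toll-like receptors are known to raise glycolysis and, where they make nitric oxide, to lose respiration over the following day.

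Many genes of the chain carry a binding sequence for NRF1, nuclear respiratory factor 1, near their start. The promoters below, 1 per complex, show where the letters GCGCANGCG of the NRF1 sequence lie, and were taken as the member of each complex with the largest fall at 20 h in GM DC whose 250 bases before the start of transcription hold them. No member of complex III with a RefSeq window had them wholly within those bases, since in Uqcr11 they run across the start and in Uqcrc1 they lie after it. The sequences are from RefSeq on build GRCm38.p6, 5′ to 3′ on the strand of the gene, which is the minus strand for each, and capitals mark the NRF1 letters on either strand. They are chr6:24527691-24527940 for Ndufa5, chr13:74350241-74350490 for Sdha, chr5:115348959-115349208 for Cox6a1 and chr15:102671048-102671297 for Atp5g2.
Ndufa5: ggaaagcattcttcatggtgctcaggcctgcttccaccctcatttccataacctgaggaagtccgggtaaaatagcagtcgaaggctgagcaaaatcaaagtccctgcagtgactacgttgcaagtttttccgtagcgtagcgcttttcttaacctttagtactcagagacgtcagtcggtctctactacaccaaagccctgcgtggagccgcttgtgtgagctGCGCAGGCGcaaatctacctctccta
Sdha: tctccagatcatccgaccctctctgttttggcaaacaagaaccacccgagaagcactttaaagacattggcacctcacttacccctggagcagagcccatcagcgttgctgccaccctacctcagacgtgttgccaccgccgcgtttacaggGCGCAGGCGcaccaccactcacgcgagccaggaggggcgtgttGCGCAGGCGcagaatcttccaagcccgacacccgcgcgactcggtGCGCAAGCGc
Cox6a1: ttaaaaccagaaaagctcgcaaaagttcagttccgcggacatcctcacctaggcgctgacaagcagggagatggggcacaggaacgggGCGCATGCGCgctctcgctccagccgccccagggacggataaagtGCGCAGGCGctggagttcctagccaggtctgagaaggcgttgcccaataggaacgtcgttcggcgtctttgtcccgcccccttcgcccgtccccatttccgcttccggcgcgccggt
Atp5g2: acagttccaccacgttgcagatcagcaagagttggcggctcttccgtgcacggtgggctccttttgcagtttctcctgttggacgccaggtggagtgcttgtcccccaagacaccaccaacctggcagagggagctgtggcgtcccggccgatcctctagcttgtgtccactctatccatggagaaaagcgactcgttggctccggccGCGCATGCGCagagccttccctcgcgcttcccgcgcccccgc
The first NRF1 letter lies 26 bases before the start in Ndufa5 and 42 bases before it in Atp5g2, where matches on the opposite strands overlap. Sdha holds the letters 3 times, at 98, 55 and 10 bases before the start, and Cox6a1 holds them at 162 bases, again overlapping on both strands, and at 117 bases.

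RefSeq promoter windows, from 250 bases before to 50 after the start, were held for 58 of the 71 members. The NRF1 letters were in a window of 15 of these 58 genes (25.9%) and of 7.03% of all 27025 genes with a window. The letters CCGGAAG, bound by ETS factors such as GABP, were in 16 of the 58 (27.6%) against 9.93% of all genes. The YY1 letters AAGATGGCG were in 5 members (8.62%) against 1.64%, and the SP1 letters GGGGCGGGG in 11 (19.0%) against 12.9%. Both strands were read for all 4 motifs. Among members with a window, the NRF1 letters were in 10 of the 30 that fell at 20 h in both DC types and in 2 of the 20 that passed in neither. A match describes the letters in the window and not binding.

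Values are MAS5 signals, a linear intensity per probe set, and each change is a difference on the log2(signal + 16) scale, so that the change of a dim gene is understated. The ± after a log2 difference is limma's standard error, and a gene rose or fell where limma's Benjamini-Hochberg adjusted p over 12422 probe sets was under 0.05. Of the 71 members 63 lay above the 40th percentile of mean signal, 8 lay below it, and none was below 16 on every array. On single arrays 29.7% to 35.3% of all probe sets read below 16. Shares over all probe sets, given beside counts of members, include such dim ones and were not matched to the members for signal. Replicates of a group correlated at 0.966 or more. In bulk RNA fewer cells of a type and less RNA per cell cannot be told apart. The lowest signals of the 8 DC markers over the arrays differed widely. They were 4764 for Cd74, 2483 for H2-Aa, 711.3 for H2-Ab1 and 435.3 for Ccr7. For Itgax, Flt3, Cd86 and Zbtb46 they were 184.2, 116.9, 76.9 and 26.8. The summed signal of 9 neutrophil markers was 8331 to 9050 in GM DC at 0 h and 3193 to 4146 at 20 h, and 9505 to 15000 and 2781 to 2936 in GM4 DC, so it was lower at 20 h as the members were. The sum of 7 macrophage and monocyte markers was 12460 to 14830 in GM DC and 4069 to 4419 in GM4 DC at 0 h, and 14340 to 15410 and 8080 to 8149 at 20 h. The 3′ to 5′ ratio of the Gapdh control, which rises with degraded RNA, ran from 1.18 to 2.46 in GM DC and from 1.07 to 1.31 in GM4 DC at 0 h. At 20 h it was 1.51 to 1.55 and 1.06 to 1.16. The same ratio of β-actin was higher at 20 h in GM DC, 1.62 to 1.88 at 0 h and 2.15 to 2.26 at 20 h, and in GM4 DC it was 1.24 to 1.45 and 1.30 to 1.35. The part of these values in the results was not tested, beyond a fit with RNA quality as a term that is given where it moved a count.

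At 20 h most genes of the chain had fallen in both DC types. In GM DC 44 of 71 fell from 0 h and none rose, while 16% of all probe sets were lower and 11% higher, and the median change was -0.83 for members against 0.01 for all probe sets. In GM4 DC 41 fell and none rose, against 12.3% lower and 8.71% higher over the array, with medians of -0.66 and 0.04. The 37 genes that fell in both make up 84.1% of the GM list and 90.2% of the GM4 list. No array enters the group means of both comparisons. The fit takes the error of each gene from all arrays, however, so the lists are not independent. The share of all probe sets that fell in both is not given here. At 6 h the DC types gave different counts. In GM DC 23 members fell and none rose (15.7% of all probe sets lower, 8.52% higher), and in GM4 DC 4 fell and 1 rose (10% lower, 5.84% higher). Member medians at 6 h were -0.22 in GM DC and -0.20 in GM4 DC, against -0.01 and 0.01 over all probe sets.

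The 6 h counts moved with single arrays. For GM DC the count of 23 became 9 without GM 6 h replicate 1 and 14 without GM 0 h replicate 2. For GM4 DC the count of 5 became 1 when GM4 0 h replicate 1 was left out. It was 3 on leaving out GM4 6 h replicate 1, and 2 for GM4 6 h replicate 2. At 20 h the count of 44 stayed between 39 and 46 and that of 41 between 28 and 42 with any 1 array left out.

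**Figure D1:**
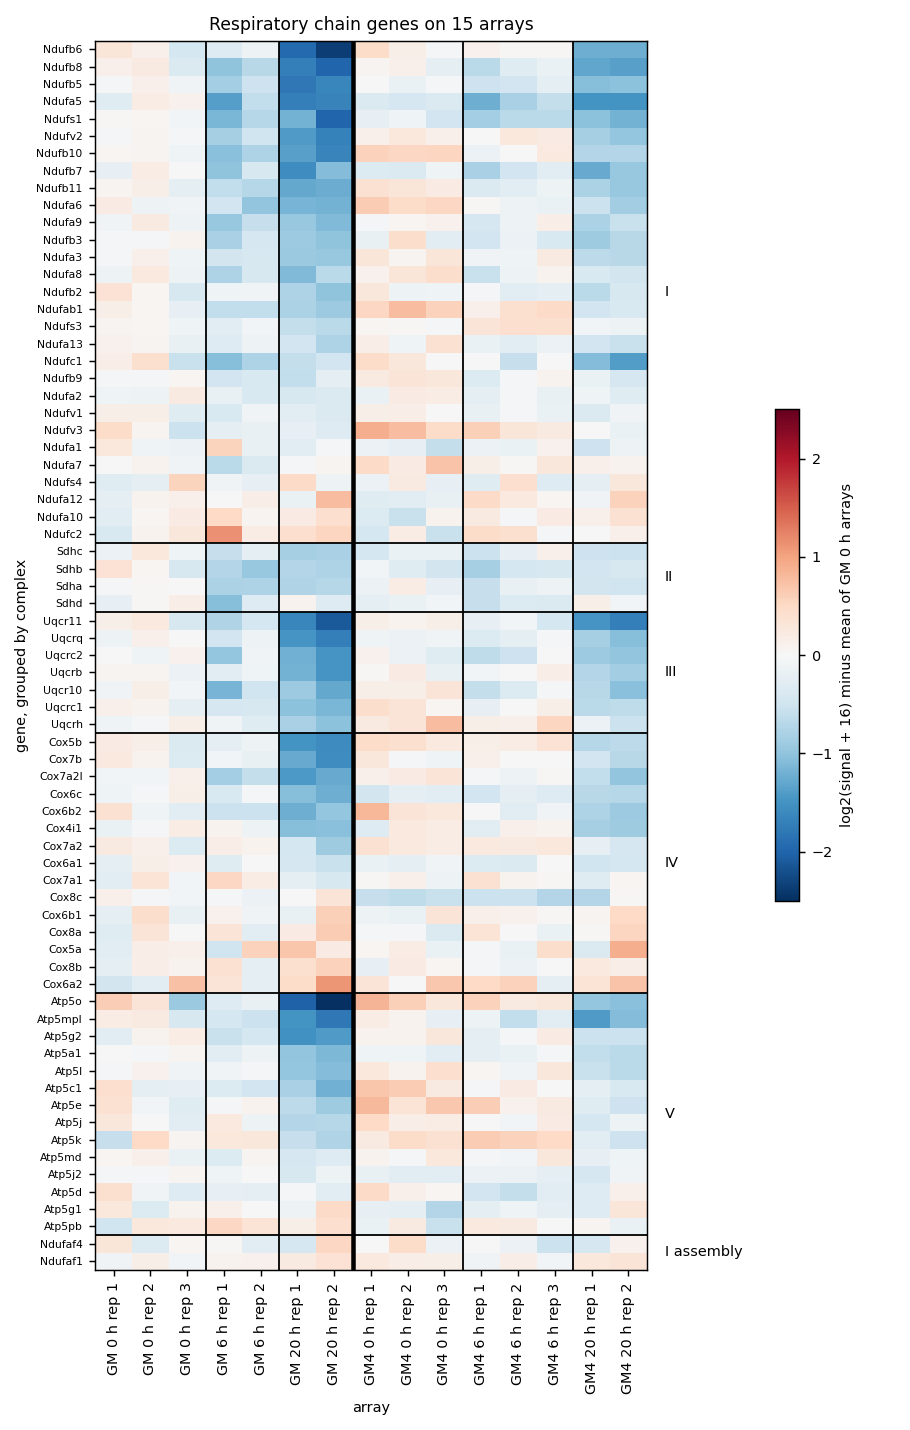
Log2(signal + 16) of each of the 71 genes on each of the 15 arrays, minus the mean of the 3 GM 0 h arrays, with genes grouped by complex and blue for lower. The 4 columns at 20 h are blue for most genes of complexes I, III and V, and the GM 20 h columns are the darkest.

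Complex I genes fell at 20 h in both DC types, and in GM DC 16 of 29 had already fallen at 6 h. Of the 29 members 16 fell at 6 h and 18 at 20 h in GM DC, with medians of -0.51 and -0.89, and none rose. In GM4 DC 3 fell and 1 rose at 6 h, with a median of -0.29, and 19 fell at 20 h, with a median of -0.79. Without GM 6 h replicate 1 the 16 at 6 h became 6. The mean log2 signal of the 29 genes was 8.38 ± 0.084 (SD, n = 3) in GM DC at 0 h, 7.95 ± 0.074 (SD, n = 2) at 6 h and 7.57 ± 0.014 (SD, n = 2) at 20 h. The GM4 arrays gave 8.48 ± 0.032 (SD, n = 3), 8.28 ± 0.072 (SD, n = 3) and 7.82 ± 0.033 (SD, n = 2).

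The Ndufb genes, which encode accessory subunits of the proton-pumping membrane arm, mostly fell at 20 h in both DC types. Of 9 members 7 fell at 6 h and 8 at 20 h in GM DC, and 2 and 8 in GM4 DC, with 20 h medians of -1.31 and -0.98. Ndufb6 read 567, 505 and 336 on the unstimulated GM arrays, 366 and 421 after 6 h and 108 and 76.6 after 20 h. On the GM4 arrays it read 637, 508 and 449.5, then 498, 469 and 469 at 6 h, then 188 and 187 at 20 h. The 20 h arrays thus lay far below all others in each DC type, while those at 0 and 6 h overlapped. Its change at 20 h was -2.15 ± 0.20 in GM DC, 4.43-fold, and -1.41 ± 0.20 in GM4 DC, 2.66-fold (limma adjusted p = 2.64e-06 and 0.000199).

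Ndufb8 and Ndufb10 had already fallen at 6 h in GM DC. Ndufb8 read 636, 678 and 447 in GM DC at the start, 280.5 and 352 at 6 h and 167 and 134 after 20 h, with no overlap between times, and its change was -0.85 ± 0.20 at 6 h and -1.85 ± 0.20 at 20 h. Its GM4 values were 610.3, 633 and 487, then 354, 465 and 515, then 226 and 217. There the 0 and 6 h arrays overlapped, and the change at 20 h was -1.31 ± 0.20. Ndufb10 read 331, 332 and 293 in GM DC unstimulated, 146 and 181 after 6 h and 114 and 91.2 after 20 h, and 482, 459.8 and 472, then 287, 316 and 379, then 186 and 186 in GM4 DC. The GM4 arrays were above the GM arrays at each time. Its change in GM DC was -0.90 ± 0.14 at 6 h and -1.50 ± 0.14 at 20 h (limma adjusted p = 0.000341 and 2.83e-06), and in GM4 DC -0.51 ± 0.13 and -1.27 ± 0.14. A dimmer probe set of Ndufb10 gave -0.16 at 20 h in GM DC and did not pass.

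The catalytic arm, which binds NADH and carries the iron-sulphur clusters, changed unevenly. Ndufs1, its largest cluster-bearing subunit, read 334, 342 and 312 in GM DC without stimulus, 139.8 and 196 at 6 h and 136 and 70.9 at 20 h. The GM4 signals were 285, 305 and 232, then 175, 201 and 201, then 153 and 136. Its arrays at 6 and 20 h lay below those at 0 h in each DC type, and the change at 20 h was -1.59 ± 0.21 in GM DC and -0.85 ± 0.21 in GM4 DC. At 6 h in GM DC it fell by 0.93 on the log2 scale (limma adjusted p = 0.00461), and leaving out GM 6 h replicate 1 gave -0.70 (adjusted p = 0.0843). Ndufv2, which holds another cluster beside the NADH site, read 655, 716 and 665 in GM DC at the start, 375 and 474 at 6 h and 245 and 200.2 after 20 h. On GM4 arrays it read 745, 822 and 744, then 687, 815 and 779, then 375 and 337, so that the 6 h arrays overlapped those at 0 h. Its change at 20 h was -1.55 ± 0.13 in GM DC and -1.08 ± 0.13 in GM4 DC. A dimmer probe set of Ndufv2 gave -0.89 in GM DC, which passed, and -0.01 in GM4 DC, which did not. Ndufv1, the NADH-binding flavoprotein itself, changed by -0.32 ± 0.15 and -0.33 ± 0.15 and passed in neither.

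Ndufs3, a core subunit on the path to ubiquinone, was highest at 6 h in GM4 DC. It read 443, 442 and 423 there unstimulated, 540.4, 578 and 569.5 after 6 h and 408 and 395 after 20 h, so each 6 h array was above the others. In GM DC it read 450.4, 444 and 398, then 356 and 411, then 279 and 263, with the lowest arrays at 20 h. It rose by 0.36 ± 0.10 at 6 h in GM4 DC (limma adjusted p = 0.0213), the only member to rise from 0 h in any of the 4 comparisons, and the call was lost without any 1 of 5 of the 6 arrays compared (adjusted p 0.0508 to 0.0782). In GM DC it fell at 20 h, with a log2 change of -0.64 ± 0.11. The difference of its responses between the DC types did not pass at 6 or 20 h.

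Among the other complex I genes, Ndufa5, an accessory subunit of the catalytic arm, read 742, 1047 and 995 in GM DC without stimulus, 343 and 591 at 6 h and 268 and 278 at 20 h. The 3 times did not overlap. It fell at 6 h in GM DC, with a 95% interval of the log2 change of -1.47 to -0.53. The change at 20 h was -1.69 ± 0.22 in GM DC, and -1.11 ± 0.22 in GM4 DC, where the arrays read 707, 678 and 710.3 at 0 h and 317 and 315 at 20 h. Leaving out GM 6 h replicate 1 moved the 6 h value to -0.62 (limma adjusted p = 0.0866). Ndufc1, a small membrane subunit, read 479.7, 562 and 283 in GM DC at the start, 195 and 242 at 6 h and 275 and 302 after 20 h. It fell, with a log2 change of -0.92 ± 0.25 at 6 h, a call lost without GM 6 h replicate 1 (-0.77, limma adjusted p = 0.145), GM 0 h replicate 1 (-0.83) or GM 0 h replicate 2 (-0.72). Its 20 h arrays overlapped those at 0 h (-0.53 ± 0.25, not passing). In GM4 DC it read 588, 517 and 424, then 422, 281 and 429, then 191 and 151, with the 20 h arrays the lowest, and fell, with a log2 change of -1.49 ± 0.25 at 20 h.

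Few members changed at 6 h in GM4 DC. Ndufs3 rose, and Ndufb10, Atp5d, Ndufa6 and Ndufb11 fell. With the replicate number as a block, which pairs these arrays, the same 5 and 4 more passed, and 6 of the 9 were complex I genes that fell and 2 were complex V genes that fell. Ndufa6, an accessory subunit of the catalytic arm, read 292, 254 and 268 there unstimulated, 185, 165 and 161 after 6 h and 121 and 92.4 after 20 h, and in GM DC 212, 165 and 171, then 126 and 83.9, then 72.8 and 70.7. The arrays of later times lay below those at 0 h in each DC type. Its change at 6 h was -0.63 ± 0.15 in GM4 DC and -0.73 ± 0.17 in GM DC. Ndufb11, of the membrane arm, read 565, 540 and 504 in GM4 DC without stimulus, 336, 360 and 395 at 6 h and 244 and 217 at 20 h. Its change at 6 h was -0.54 ± 0.12 in GM4 DC (limma adjusted p = 0.00549) and -0.66 ± 0.13 in GM DC, where it read 455, 484 and 369, then 276 and 259.6, then 169 and 175. The times did not overlap in either DC type. Atp5d, the δ subunit in the central stalk of ATP synthase, read 305, 236 and 224 in GM4 DC at the start. It read 149, 136 and 173 at 6 h and 167 and 236 after 20 h. Its change at 6 h was -0.68 ± 0.19. The mean over all its probe sets gave -0.14, which did not pass, and the call was lost without GM4 0 h replicate 1 (-0.55), GM4 6 h replicate 1 (-0.66) or GM4 6 h replicate 2 (-0.60). Without 1 array the calls of Ndufa6 (-0.57 without GM4 0 h replicate 1) and Ndufb10 (-0.43 to -0.50 on leaving out any of the same 3 arrays as for Atp5d) were lost as well.

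Ndufa7, Ndufb9, Ndufc1 and Sdhd were the 4 of the 23 genes lower at 6 h in GM DC that did not pass at 20 h, and the other 19 passed at both times. Ndufa7 read 923, 979 and 865 in GM DC unstimulated, 573 and 716 after 6 h and 889 and 971 after 20 h, so the 6 h arrays lay below both other times. Between 6 and 20 h it rose by 0.52 ± 0.17 (limma adjusted p = 0.0444), a call lost without either GM 6 h replicate 1 (0.37), GM 20 h replicate 1 (0.59) or GM 20 h replicate 2 (0.46) and in 13 of the 24 alternative fits.

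Complex II, the enzyme shared with the citric acid cycle, had genes that fell in GM DC and none that fell in GM4 DC. In GM DC Sdha, Sdhb and Sdhd fell at 6 h, and Sdha, Sdhb and Sdhc at 20 h, with medians over the 4 genes of -0.73 and -0.74. In GM4 DC none passed at either time, with medians of -0.26 and -0.21, with 0 genes at 6 h and 1 at 20 h at an unadjusted limma p under 0.05. Sdha, the flavoprotein that oxidises succinate, read 168, 179.7 and 176 in GM DC without stimulus, 94.6 and 96.4 at 6 h and 97.5 and 99.7 at 20 h. Its GM4 values were 157, 202 and 149, then 112, 151 and 159, then 123 and 119.7. The GM arrays at 6 and 20 h were all below 100 and apart from 0 h, and the change was -0.77 ± 0.16 at 6 h and -0.73 ± 0.16 at 20 h, against -0.25 ± 0.15 and -0.42 ± 0.16 in GM4 DC.

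The difference of these responses was itself tested and did not pass for any complex II gene. At 20 h the GM4 change minus the GM change was 0.31 for Sdha, 0.58 for Sdhb and 0.56 for Sdhc, which were lower than at 0 h in both. It was 0.32 for Sdhd, which stood at -0.13 in GM DC and 0.19 in GM4 DC. Sdhb, the iron-sulphur subunit, read 739.9, 589 and 427 in GM DC at the start, 338 and 287 at 6 h and 339 and 329 after 20 h, below every 0 h array. In GM4 DC its 20 h arrays, 406 and 429.6, overlapped those at 0 h, 543, 461 and 413. Sdhd, a membrane anchor, read 1070, 1265 and 1386 in GM DC unstimulated, 581 and 984 after 6 h and 1304 and 977 after 20 h. It fell by 0.69 on the log2 scale at 6 h (limma adjusted p = 0.0194), with GM 6 h replicate 1 much the lower of its pair, and overlapped the 0 h arrays at 20 h (-0.13 ± 0.20, not passing).

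In complex III all members chosen by symbol fell at 20 h, 7 of 7 in each DC type, and in no other complex did all. Its subunit Cyc1, whose symbol lies outside the choice, fell in GM DC and did not pass in GM4 DC (-0.39 ± 0.16). Medians were -1.32 in GM DC and -0.83 in GM4 DC. In GM DC the 7 of 7 held in every alternative fit, and in GM4 DC the count was 5 without GM4 20 h replicate 2. At 6 h 2 members, Uqcr10 and Uqcr11, fell in GM DC (0 without GM 0 h replicate 3 and GM 6 h replicate 1) and none in GM4 DC, where 1 had an unadjusted p under 0.05. The mean log2 signal of the 7 genes was 9.71 ± 0.079 (SD, n = 3), 9.28 ± 0.22 (SD, n = 2) and 8.40 ± 0.2 (SD, n = 2) in GM DC at 0, 6 and 20 h. The GM4 arrays gave 9.83 ± 0.021 (SD, n = 3), 9.59 ± 0.16 (SD, n = 3) and 8.84 ± 0.14 (SD, n = 2).

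Uqcr11, a small accessory subunit, read 380.4, 408 and 256 in GM DC without stimulus, 198 and 248 at 6 h and 99.4 and 67.8 at 20 h. The GM4 signals were 377, 365 and 378, then 293, 323 and 248, then 113 and 93.2. In each DC type the 3 times were apart, with the lowest arrays at 20 h. The change at 20 h was -1.86 ± 0.20 or 3.64-fold in GM DC and -1.71 ± 0.20 or 3.28-fold in GM4 DC (limma adjusted p = 8.11e-06 and 3.59e-05). The difference of the 2 changes was 0.15 ± 0.28, with a 95% interval of -0.46 to 0.75. Uqcrq, a small subunit beside cytochrome b, read 1955, 2329 and 2145 in GM DC at the start, 1539 and 1956 at 6 h and 756 and 642 after 20 h, and 1996, 1927 and 2008, then 1692, 1814 and 2081, then 1202 and 1018 in GM4 DC. Only the 20 h arrays stood apart from 0 h, with a change of -1.60 ± 0.15 in GM DC and -0.83 ± 0.15 in GM4 DC. The core proteins Uqcrc1 and Uqcrc2 fell, with a log2 change of -1.09 ± 0.15 and -1.34 ± 0.23 in GM DC and with -0.92 ± 0.15 and -0.83 ± 0.23 in GM4 DC, and the hinge protein Uqcrh with -0.92 ± 0.19 and -0.78 ± 0.19.

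**Figure D2:**
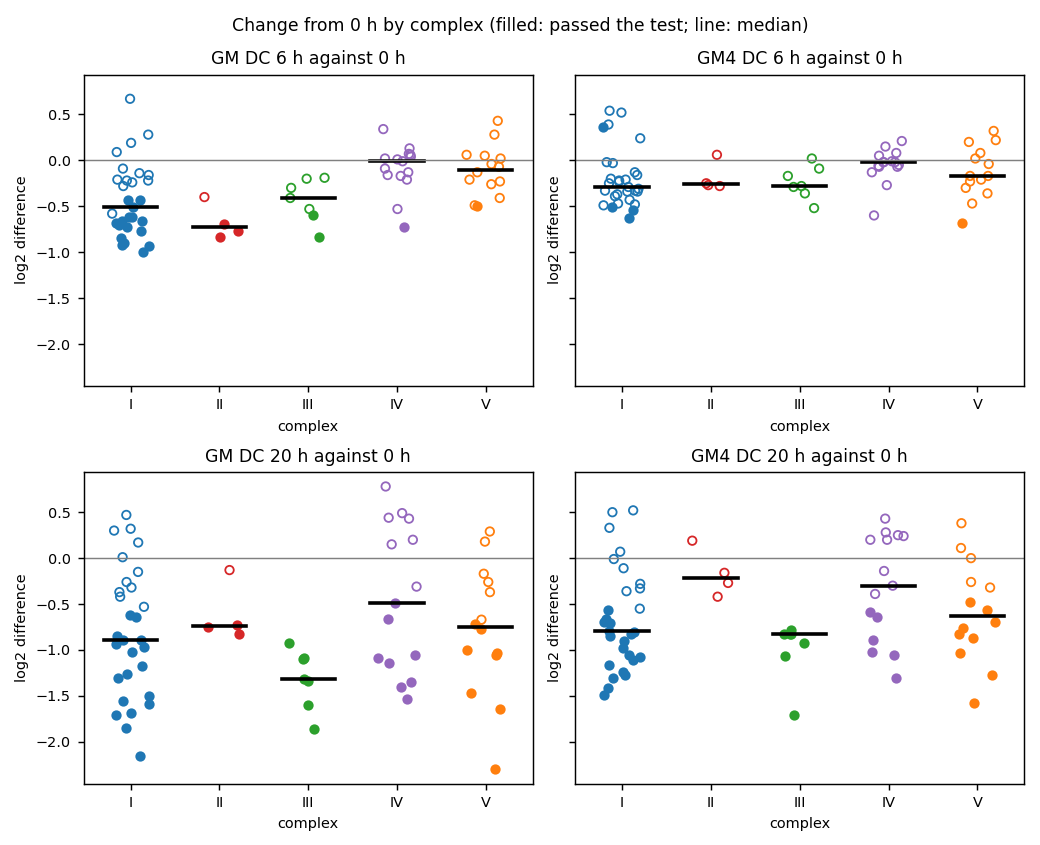
Log2 difference from 0 h of each member (points) by complex at 6 and 20 h in GM DC (left) and GM4 DC (right), filled where the gene passed limma's test, with a line at the median. At 20 h all 7 points of complex III are filled in both panels, and the 4 points of complex II are filled for 3 genes in GM DC and for 0 in GM4 DC.

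Complex IV changed late and only in part. Of 15 members 1, Cox7a2l, fell at 6 h and 8 at 20 h in GM DC, and 0 and 6 fell in GM4 DC, where 2 had an unadjusted p under 0.05 at 6 h. The 20 h medians were -0.49 and -0.30, and the 8 became 5 with the mean over a gene's probe sets. Cox5b, a zinc-binding subunit on the matrix side, read 929.5, 886 and 624 in GM DC unstimulated, 685 and 735 after 6 h and 276 and 258 after 20 h. On GM4 arrays it read 1114, 1060 and 953, then 892, 916 and 1038, then 485 and 500.3. Arrays at 0 and 6 h overlapped in both and those at 20 h were well below. The change at 20 h was -1.53 ± 0.15 in GM DC and -1.05 ± 0.15 in GM4 DC (limma adjusted p = 4.43e-06 and 0.000225).

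Cox7b read 1054, 946 and 699.8 in GM DC without stimulus, 848 and 776 at 6 h and 363 and 292 at 20 h. In GM4 DC this small subunit read 1087, 865 and 822, then 973, 877 and 884, then 634 and 539. The 20 h arrays were the lowest in each DC type, at a lower level in GM DC, and the change was -1.40 ± 0.17 and -0.64 ± 0.17. Cox7a2l, known as a factor that joins complexes III and IV into supercomplexes, read 1021, 1015 and 1167 in GM DC at the start, 583 and 699 at 6 h and 383 and 435 after 20 h. In GM4 DC it read 1167, 1238 and 1331, then 1024, 969.7 and 1085, then 688 and 533. The GM arrays at 6 h were already below every 0 h array. It fell, with a log2 change of -0.73 ± 0.14 at 6 h and -1.35 ± 0.14 at 20 h in GM DC, and with -1.02 ± 0.14 at 20 h in GM4 DC.

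Several complex IV subunits have a form used in most cells and another used in muscle or testis, and differences between the forms were not tested. Of the widely used forms, Cox4i1 fell, with a log2 change of -1.06 ± 0.19 in GM DC and -0.89 ± 0.19 in GM4 DC. A dimmer probe set of Cox4i1 gave 0.40 in GM DC and 0.13 in GM4 DC at 20 h and passed in neither. Cox7a2 fell, with -0.66 ± 0.17 and -0.59 ± 0.17. Cox6a1 fell, with a log2 change of -0.49 ± 0.16 in GM DC, and stood at -0.30 ± 0.16 in GM4 DC, which did not pass. Cox6b1 (0.20 ± 0.28 and 0.28 ± 0.28) and Cox8a (0.43 ± 0.24 and 0.43 ± 0.24) passed in neither. The muscle forms Cox6a2, Cox7a1 and Cox8b passed in neither, with GM DC values of 0.78 ± 0.37, -0.31 ± 0.20 and 0.49 ± 0.22. Of the testis forms, Cox8c did not pass (0.15 ± 0.18 in GM DC), whereas Cox6b2 passed in both, with -1.09 ± 0.24 and -1.31 ± 0.24. Cox6b2 was dim, at 84.7, 56.5 and 48.1 in GM DC at 0 h and 17.4 and 23.8 at 20 h. Its probe set (suffix f) is of a kind that can bind related transcripts, as are those used for Cox4i1 and Cox6a1. Probe sets of 18 members, these included, carry a suffix (f, r, i, s or g) for a departure from the standard design. Not all of these suffixes mean binding of related transcripts. The other 2 probe sets of Cox6b2 differed. At 20 h 1 gave 0.35 in GM DC and 0.06 in GM4 DC and passed in neither, and the other gave -0.44, which did not pass, and -0.94, which did (limma adjusted p = 0.00431). Cox5a, Cox7a1 and Cox8a were below the 40th percentile of signal.

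In complex V genes of both the F1 part (the head with its central stalk) and the membrane part of ATP synthase fell. Most of these calls came at 20 h and few at 6 h. Of 14 members 1 fell at 6 h and 8 at 20 h in GM DC, and 1 and 9 in GM4 DC, with 20 h medians of -0.75 and -0.63. Of the 4 genes of the F1 part, Atp5a1, Atp5c1, Atp5d and Atp5e, 3 fell at 20 h in each DC type (medians -0.89 and -0.66). In the membrane part and peripheral stalk 5 of 10 fell in GM DC and 6 of 10 in GM4 DC (medians -0.70 and -0.63). The parts were not compared by a test, and in GM4 DC the 9 became 5 without GM4 20 h replicate 2. Atp5a1, the α subunit of the head, read 2299, 2247 and 2443 in GM DC unstimulated, 1911 and 2120 after 6 h and 1161 and 1058 after 20 h. Its GM4 values were 2162, 2165 and 1901, then 1956, 2078 and 2261, then 1509 and 1459. The 20 h arrays were the lowest in both, and the change was -1.06 ± 0.12 in GM DC and -0.48 ± 0.12 in GM4 DC (limma adjusted p = 1.43e-05 and 0.0117).

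Atp5o, which joins the head to the stalk and is also called OSCP, had the largest fall of all 71 members in GM DC. It read 549, 442 and 177 there unstimulated, 277 and 309 after 6 h and 74.7 and 45.7 after 20 h. The GM4 signals were 648, 542 and 434, then 533, 418 and 431, then 172 and 164. GM 0 h replicate 3 was far below the other GM 0 h arrays, yet still above both at 20 h. The change at 20 h was -2.30 ± 0.34 or 4.93-fold in GM DC and -1.58 ± 0.34 or 2.99-fold in GM4 DC (limma adjusted p = 0.000135 and 0.00403). Atp5mpl, a small membrane subunit, fell, with a log2 change of -1.64 ± 0.21 and -1.27 ± 0.21.

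The c subunits form the rotating ring, and their genes encode the same mature protein. Atp5g2 read 294, 382 and 407 in GM DC at the start, 239.8 and 258 at 6 h and 114 and 124 after 20 h. On GM4 arrays it read 381, 382 and 439.9, then 302, 351 and 417, then 241 and 240.2. Both GM 20 h arrays were far below those at 6 h, and neither reached a GM4 20 h array. It fell, with a log2 change of -0.50 ± 0.16 at 6 h and -1.47 ± 0.16 at 20 h in GM DC and with -0.70 ± 0.16 at 20 h in GM4 DC. A dimmer probe set of Atp5g2 gave 0.45 in GM DC and 0.52 in GM4 DC at 20 h and passed in neither. Atp5g1 changed by 0.18 ± 0.27 and 0.38 ± 0.27 and did not pass. The main probe set of Atp5g2, like that of Cox6b2, is of the kind that can bind related transcripts. Whether its values are of this gene alone was not tested.

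**Figure D3:**
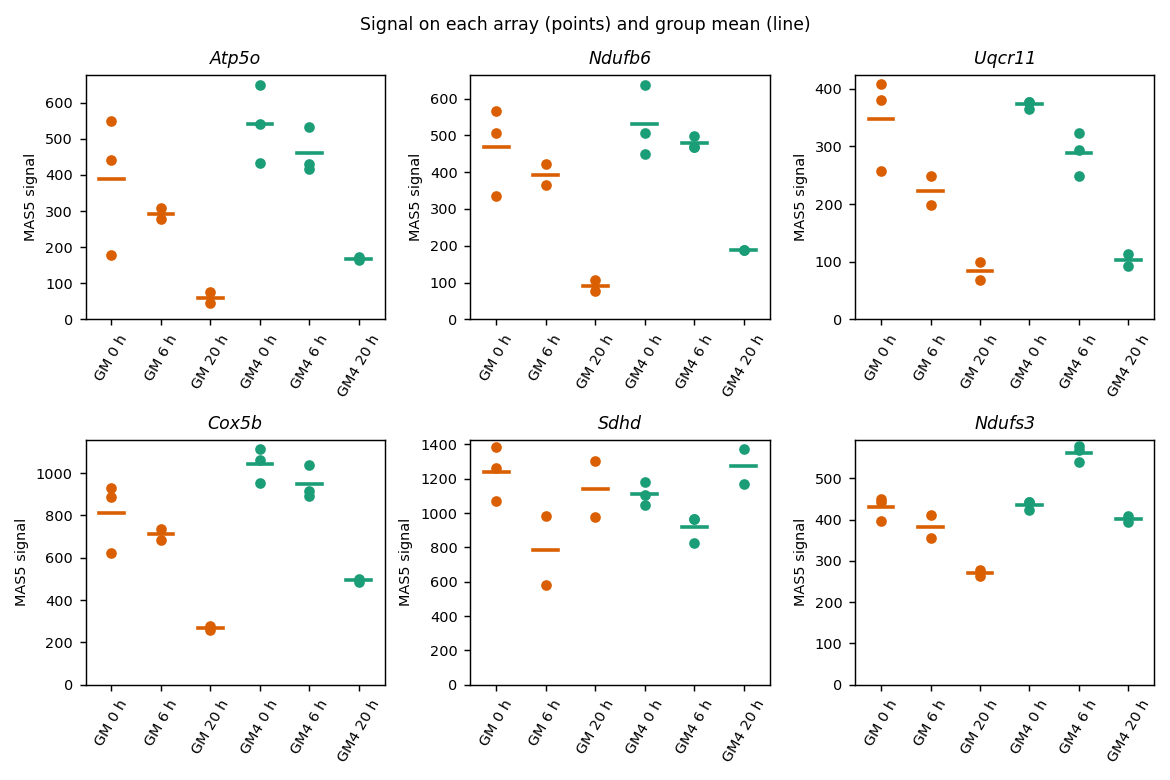
MAS5 signal of Atp5o, Ndufb6, Uqcr11, Cox5b, Sdhd and Ndufs3 on each array (points) with the group mean (line), on linear axes that start at 0, for GM DC (orange) and GM4 DC (green). The first 4 genes are lowest at 20 h in both DC types, Sdhd is not, and the 3 GM4 6 h arrays of Ndufs3 lie above the other groups.

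The complex medians of III, IV and V in GM DC moved mostly after 6 h. Between 6 and 20 h 29 members fell and 1 rose in GM DC (7.75% of all probe sets lower and 8.7% higher), with 6 of 7 in complex III, 6 of 15 in IV and 8 of 14 in V, and with 9 of 29 in I and 0 of 4 in II. The complex medians were -0.35, 0.07, -0.82, -0.56 and -0.78 for I to V. Atp5o fell, with a log2 change of -2.04 ± 0.37, Ndufb6 with -1.93 ± 0.22, Cox5b with -1.36 ± 0.17 and Uqcrq with -1.30 ± 0.16 in this interval. In GM4 DC 27 fell and none rose (6.01% of all probe sets lower and 5.68% higher), with 11 in complex I, 0 in II, 4 in III, 5 in IV and 7 in V. In complex II 1 gene had an unadjusted p under 0.05 in each DC type. Atp5o fell, with a log2 change of -1.37 ± 0.34, Uqcr11 with -1.35 ± 0.20, Ndufb6 with -1.28 ± 0.20 and Ndufv2 with -1.06 ± 0.13. The Atp5o call in GM4 DC was lost without GM4 6 h replicate 1 (-1.26), GM4 20 h replicate 1 (-1.40) or GM4 20 h replicate 2 (-1.33). The total of 30 in GM DC became 16 without GM 20 h replicate 2. In complex I the 9 then became 3, and in complex III the 6 became 3 without GM 6 h replicate 2. In complex V the 8 became 5 without GM 0 h replicate 3 and GM 6 h replicate 1. In GM4 DC the 27 became 9 on leaving out replicate 2 of the 20 h group, and 16 for replicate 1. Leaving out that replicate 2 took complex I from 11 to 5, complex III from 4 to 2 and complex IV from 5 to 1, and leaving out replicate 1 took complex V from 7 to 1.

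The genes without a call at 20 h were not all dim. Of 71 members 37 fell in both DC types, 7 passed in GM DC alone (Cox6a1, Cox6c, Ndufb2, Ndufs3, Sdha, Sdhb and Sdhc), 4 in GM4 DC alone (Atp5k, Ndufb9, Ndufc1 and Ndufv3) and 23 in neither. Of those 23, 8 were the members below the 40th percentile of signal and 15 were above it. The 15 include Ndufa1, Ndufa2, Ndufa10 and Ndufv1 of complex I, Sdhd, Cox6b1, and Atp5d, Atp5g1 and Atp5pb of complex V. Passing in 1 DC type alone is no test of a difference, which is given next.

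In the fit of group means no member's change at 20 h differed between the DC types past the test of the difference itself. Over the 71 genes the changes in the DC types correlated at Pearson 0.874 and Spearman 0.859, a description of genes that share arrays and are no independent points. The change in GM4 DC was above that in GM DC for 51 of 71, genes without a fall included, and the median difference of responses was 0.17. By limma 0 of 71 passed for the difference at 20 h (1.26% of all probe sets passed), and 13 had an unadjusted p under 0.05. On simulated data this test found 27.8% of differences of log2 1, so the absence of calls does not show equal changes. Under each of 3 alternatives 2 members did pass, at 0.79 for Ndufb5 and 0.84 for Uqcrq with quantile normalization, 0.77 for both Atp5g2 and Cox7b with the replicate number as a block, and 0.87 for Atp5g2 and -0.73 for Ndufv3 with RNA quality as a term. The extremes were Atp5g2 at 0.77 ± 0.22 with a 95% interval of 0.29 to 1.25, Cox7b at 0.77 ± 0.25 (0.24 to 1.30) and, on the other side, Ndufc1 at -0.95 ± 0.36 (-1.72 to -0.18), with limma adjusted p of 0.125, 0.172 and 0.268. Cox6a2, a muscle form, stood at -0.58 ± 0.53 with an interval of -1.71 to 0.55.

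At 6 h the difference of responses also passed for 0 of 71 by limma (0.958% of all probe sets passed), with 5 at an unadjusted p under 0.05 and a median of 0.12. Ndufv2 stood highest at 0.64 ± 0.18, with a 95% interval of 0.26 to 1.03 (limma adjusted p = 0.112), and passed without GM 6 h replicate 2 (0.81, adjusted p = 0.047). Ndufa9 followed at 0.60 ± 0.24 (0.09 to 1.11). The lowest were Atp5d at -0.45 ± 0.28 (-1.06 to 0.16) and Atp5e at -0.32 ± 0.28 (-0.92 to 0.28), both of the central stalk of ATP synthase.

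**Figure D4:**
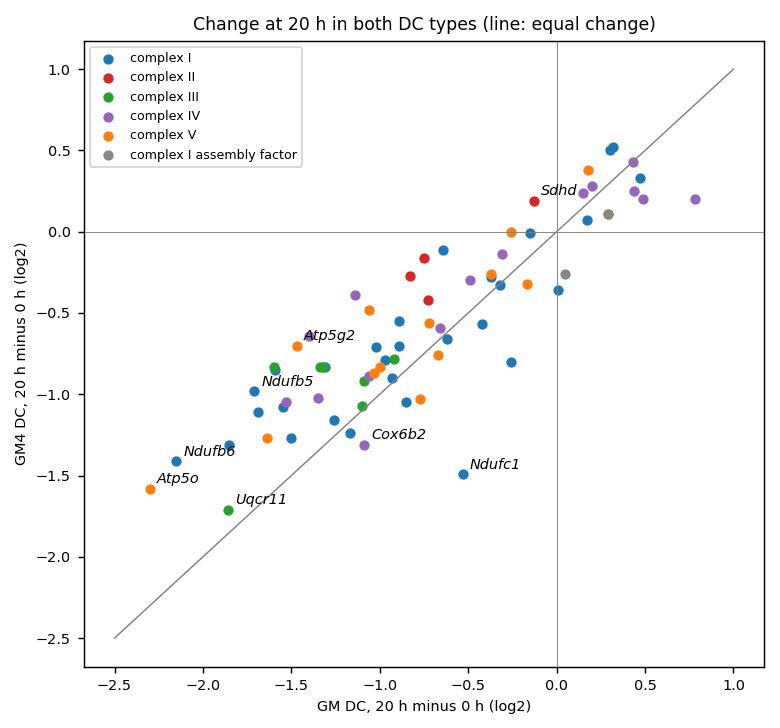
Log2 difference at 20 h against 0 h in GM DC (horizontal) and GM4 DC (vertical) for each of the 71 genes, coloured by complex, with the line of equal change. Most points lie in the lower left and 51 lie above the line, where the GM4 value is above the GM value, while Ndufc1 lies well below it.

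Set side by side at the same time, a minority of members differed between the DC types, and after stimulation those that did were higher in GM4 DC. At 0 h 6 members were higher and 1 lower in GM4 DC (6.86% and 7.12% of all probe sets), with a member median of 0.05 against -0.06 for all probe sets. At 6 h 9 were higher and none lower (6.39% and 4.74%), with a median of 0.20 against -0.04. At 20 h 9 were higher and none lower (3.14% and 1.56%), with a median of 0.26 against -0.04. These comparisons share arrays with those over time above.

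At 0 h 5 of the 6 higher genes were in complex I. Ndufab1, the acyl carrier protein of mitochondria and a complex I subunit, read 321, 299.6 and 249 in GM DC and 422, 504 and 440.3 in GM4 DC at 0 h, 182 and 183 and 318, 384 and 406 at 6 h, and 159.6 and 147 and 204 and 217 at 20 h. The GM4 arrays were above the GM arrays at each time. It was higher by 0.63 ± 0.13 at 0 h and 0.95 ± 0.14 at 6 h (limma adjusted p = 0.00416 and 0.000664). Ndufb10 was higher by 0.54 ± 0.13 at 0 h, 0.93 ± 0.14 at 6 h and 0.78 ± 0.16 at 20 h, with its arrays given above. The dimmer probe set of Ndufb10 gave 0.03, 0.1 and 0.1 at these times and never passed. The mean over both its probe sets gave 0.29 at 0 h and 0.52 at 6 h, and neither passed. Ndufv3, an accessory subunit beside the NADH site, read 335, 304 and 242 in GM4 DC and 242, 181 and 113 in GM DC at 0 h (0.72 ± 0.21). Atp5e, the ε subunit in the central stalk of ATP synthase, read 711, 510 and 642 and 521, 375 and 318 (0.61 ± 0.19). Both overlapped between the DC types by 1 array. Cox8c, a testis form, was lower, at 224, 216 and 227 in GM4 DC against 373, 329.8 and 327 in GM DC (-0.59 ± 0.16). The 7 calls at 0 h became 2 on leaving out GM 0 h replicate 2, and 3 for GM 0 h replicate 3. They became 2 on leaving out GM4 0 h replicate 1 and 4 for replicate 2 or 3 of the same group. With RNA quality as a term 2 members passed, neither of them among the 7.

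At 6 h 8 of the 9 higher genes were in complex I, and they were Ndufab1, Ndufb10, Ndufv2, Ndufa3, Ndufa6, Ndufa7, Ndufa9 and Ndufs3. Ndufv2 was higher by 0.82 ± 0.13 and Ndufs3 by 0.54 ± 0.11, and for each gene the 3 GM4 arrays given above lay over both GM arrays. The dimmer probe set of Ndufv2 gave 0.04 here and did not pass. Cox7a2l, the ninth, was higher by 0.67 ± 0.14 (limma adjusted p = 0.00623), and leaving out GM 6 h replicate 1 gave 0.54 (adjusted p = 0.091). Without that array 4 of the 9 passed. With RNA quality as a term 5 members passed, 4 of them among the 9.

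At 20 h the higher genes were spread over complexes I (5), III (1), IV (2) and V (1). Ndufb6 was higher by 0.93 ± 0.22, Atp5g2 by 0.93 ± 0.17, Cox5b by 0.85 ± 0.17 and Cox7b by 0.81 ± 0.19 (limma adjusted p = 0.0288, 0.0069, 0.0103 and 0.0265). For each of these the arrays given above did not overlap. Ndufb5, Ndufb10, Ndufv2, Ndufs3 and Uqcrq were higher by 0.66, 0.78, 0.65, 0.54 and 0.65. With 2 arrays against 2 these calls leaned on single arrays, and least on GM 20 h replicate 1. The 9 became 0 without GM4 20 h replicate 1, 1 without GM 20 h replicate 2 and 3 without GM4 20 h replicate 2, and 1 with RNA quality as a term. The mean over both probe sets of a gene gave 0.22 for Atp5g2 and 0.57 for Ndufb6 at 20 h, and neither passed.

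Genes around the chain moved with it in part, and their counts at 20 h stand beside 16% lower and 11% higher over all probe sets in GM DC, and 12.3% and 8.71% in GM4 DC. Of 17 measured genes of the citric acid cycle and pyruvate dehydrogenase, which feed it electrons, 14 fell at 20 h in GM DC and 8 in GM4 DC, and none rose. Idh2, an isocitrate dehydrogenase, fell, with a log2 change of -2.69 ± 0.25 and -2.27 ± 0.25, and Fh1, fumarase, with -1.83 ± 0.22 and -2.08 ± 0.22. Of 12 genes for mitochondrial DNA upkeep and expression 8 fell in GM DC and 5 in GM4 DC at 20 h, and none rose. Mrpl12, a mitochondrial ribosomal protein, had already fallen at 6 h, with log2 changes of -1.62 ± 0.25 in GM DC and -1.48 ± 0.22 in GM4 DC.

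Of 14 electron carriers and other chain genes 7 fell and 2 rose at 20 h in GM DC, and 4 fell and 2 rose in GM4 DC. Etfb, which takes electrons from fatty acid oxidation, fell, with a log2 change of -2.45 ± 0.24 and -1.79 ± 0.24, and Atpif1, an inhibitor of ATP synthase, with -1.88 ± 0.22 and -1.43 ± 0.22. Cyc1, a catalytic subunit of complex III whose symbol the choice of members missed, fell, with a log2 change of -0.74 ± 0.16 in GM DC, and stood at -0.39 ± 0.16 in GM4 DC, which did not pass. Cycs, cytochrome c, moved against the chain at 6 h, where it rose by 0.77 ± 0.24 in GM DC and 0.84 ± 0.22 in GM4 DC, and it fell, with a log2 change of -1.11 ± 0.24 at 20 h in GM DC. Gpd2, which passes electrons from glycerol-3-phosphate of glycolysis to ubiquinone, rose by 2.14 ± 0.18 and 0.99 ± 0.16 at 6 h.

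Of 11 assembly factors 4 fell and 1 rose at 20 h in GM DC, and 5 fell in GM4 DC. Lrpprc, which stabilises mitochondrial messenger RNA, fell, with a log2 change of -1.53 ± 0.25 and -1.03 ± 0.25, and Sdhaf1, an assembly factor of complex II, with -0.96 ± 0.20 and -1.18 ± 0.20. The members Ndufaf1 and Ndufaf4 changed by 0.29 ± 0.16 and 0.05 ± 0.30 in GM DC and passed in no comparison over time. Of 12 carriers and porins 3 fell and 1 rose at 20 h in GM DC and 3 fell in GM4 DC, shares not far from those over all probe sets. Among them was Slc25a4, an exchanger of ADP and ATP, with log2 changes of -1.40 ± 0.12 and -0.78 ± 0.12.

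Of 11 regulators of respiratory genes 3 fell and 2 rose at 20 h in each DC type, again not far from those shares. Yy1, whose letters were counted in the promoters, fell, with a log2 change of -2.02 ± 0.18 at 6 h and -1.14 ± 0.18 at 20 h in GM DC, and with -1.27 ± 0.16 and -1.09 ± 0.18 in GM4 DC. Pprc1, a coactivator of NRF1, fell, with a log2 change of -1.09 ± 0.18 and -0.68 ± 0.18, and Myc with -1.42 ± 0.23 and -1.24 ± 0.23. Esrra, a nuclear receptor for oxidative genes, rose by 1.06 ± 0.15 and 0.71 ± 0.15. Gabpa, an ETS factor, changed by -0.70 ± 0.29 and -0.67 ± 0.29 and did not pass. Hif1a, a driver of glycolytic genes, rose by 1.30 ± 0.19 in GM DC and 0.68 ± 0.17 in GM4 DC at 6 h.

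For 20 of the members the array held 27 further, dimmer probe sets. Of the 16 that belong to a gene that fell at 20 h in GM DC, 3 fell as well, 13 did not pass and 0 rose. Some of the 13 stood above 0, among them those of Atp5g2 at 0.45 and Cox4i1 at 0.40. In GM4 DC 2 of 11 fell, 9 did not pass and 0 rose, and among the 9 Atp5g2 stood at 0.52 and Ndufb7 at 0.38.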

How the data were processed

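Each of the 15 RNA samples had its own Affymetrix mouse oligonucleotide array, per the labels. The deposited unit is a linear intensity, 1 signal per probe set. The submitters' processing notes name MAS5 (version not given in the sources used here). Arrays had been scaled by the authors to a common level, as the 2% trimmed mean of the deposited intensity was equal on all. MAS5 treats every array separately, which leaves dim signals noisy, and the scaling hides any change in total RNA per cell. The number of arrays limits the precision.

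All 12422 probe sets other than 66 controls (12488 in total) entered the fit, with none removed for low signal. By the platform annotation 10833 carry 1 symbol, 396 several and 1193 none. The members have 98 probe sets of 1 symbol, and a further 10 that share a matching symbol with other genes were not used. Log2(signal + 16) was fitted with limma 3.58.1 in R 4.3.3 as 6 group means over the 15 arrays (9 residual degrees of freedom, prior 4.76), moderated with an intensity trend and adjusted by Benjamini-Hochberg per contrast. Groups follow the titles. Deviations from the group means correlated at 0.003 to 0.332 (median 0.1, 16 of 33 over 0.1) between arrays of different groups with the same replicate number, and at -0.296 to 0.173 (median -0.076, 2 of 60 over 0.1) between those with different numbers. All 3 pairs of GM4 0 h and GM4 6 h lay over 0.1 (0.193, 0.187 and 0.115), so there the numbers were taken to pair the arrays, and the blocked count is given beside the result. The other groups have fewer pairs or a pair at or under 0.1. The labels speak of 3 biological replicates, not all with RNA good enough for an array. The members, gene lists, tests and alternatives were chosen with earlier results of these data known. Values are given array by array for the 4 highest and 4 lowest members past the test in each contrast, and for others in their complex chosen after their values were seen. The fit was tested on simulated data with 200 changed probe sets. For GM DC at 20 h it found 61.4% of those changed by log2 1 and 92.9% of those changed by log2 2, and for the difference of 20 h responses 27.8% and 80.6%.

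The settings varied were the offset (1 or 64), normalization by quantiles, centring on the median, removal of probe sets under the 40th percentile, a replicate block, averaging a gene's probe sets, and a term for RNA quality from the 3′ and 5′ control probes of Gapdh and β-actin. Each array was also left out in turn, as was GM 0 h replicate 3 together with GM 6 h replicate 1.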

Additional observations from a re-analysis of the deposited data

How the results depend on the processing

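No member that passed changed direction under any alternative. In every one 33 of the 44 genes lower at 20 h in GM DC passed, 23 of the 41 in GM4 DC, 5 of the 23 at 6 h in GM DC and 1 of the 5 in GM4 DC. Without GM 0 h replicate 3 and GM 6 h replicate 1 together, the count of members that passed moved from 23 to 9 at 6 h in GM DC, and in GM4 against GM DC from 7 to 2 at 0 h and from 9 to 4 at 6 h. With RNA quality as a term it moved from 5 to 8 at 6 h in GM4 DC, from 0 to 2 for the difference of 20 h responses (Atp5g2 at 0.87 and Ndufv3 at -0.73), and in GM4 against GM DC to 2, 5 and 1 at 0, 6 and 20 h. Quantile normalization gave 8 at 6 h in GM4 DC, 2 for the difference at 20 h (Ndufb5 at 0.79 and Uqcrq at 0.84) and 2 higher beside 46 lower at 20 h in GM DC. Median centring gave 5 for GM4 against GM DC at 20 h, and 1 higher beside 15 lower at 6 h in GM DC.

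With 1 array left out the counts ran as follows. From 0 h in GM DC they were 9 to 24 at 6 h and 39 to 46 at 20 h, with 16 to 31 between 6 and 20 h. In GM4 DC they were 1 to 7, 28 to 42 and 9 to 28. For GM4 against GM DC they were 2 to 7 at 0 h, 4 to 13 at 6 h and 0 to 11 at 20 h. For the difference of responses they were 0 to 1 at 6 h and 0 throughout at 20 h. The cause of these moves was not tested.

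With the replicate number as a block 9 members passed at 6 h in GM4 DC and 2 for the difference of 20 h responses (Atp5g2 and Cox7b, each at 0.77). At 20 h the block gave 45 in GM DC and 43 in GM4 DC. For GM4 against GM DC it gave 9, 13 and 13 at 0, 6 and 20 h, in place of 7, 9 and 9. Only the counts at 6 h in GM4 DC and for the difference of 20 h responses changed by over 1.5 times.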
